A study of Mus musculus with 9 samples.

Results

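The genes described here are targets of the let-7 microRNAs that are typical of fetal cells. Of the 8 genes listed, Igf2bp1, Igf2bp3, Hmga2, Lin28b, Arid3a and Plagl2 had at least 1 probe set that the array's annotation assigns to that gene alone, and all such probe sets were taken. They number 20 of the 45037 non-control probe sets on the array, with 6 for Igf2bp3, 4 each for Igf2bp1, Hmga2 and Plagl2, and 1 each for Lin28b and Arid3a. Igf2bp2 and Hmga1 were not analysed here.

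The study measured RNA from granulocyte-macrophage progenitors (GMPs), the bone marrow cells that give rise to neutrophils and monocytes, on 9 Affymetrix arrays. Donor cells carried the transgenes Cebpa-Cre and R26-LSL-Eyfp in all 3 groups. The groups were Dicer wild type, Dicer heterozygous deletion (1 allele lost) and Dicer null (floxed Dicer1 on both alleles), with 3 arrays each. Cre recombinase expressed from Cebpa, a gene of myeloid-committed progenitors, deletes the floxed exon and switches on the yellow fluorescent protein by which the cells were sorted, so Dicer1 is removed in cells that have begun to express Cebpa. The donor cells were fetal liver cells of embryonic day 13.5, transplanted into C57BL/6 recipients aged 6 to 8 weeks after irradiation with 8.5 Gy, and marrow was taken 6 to 10 weeks later. Cells of 1 fetal liver typically went into more than 1 recipient, and the labels do not say which arrays share a donor, so the p-values measure the spread between these samples. Fewer cells expressing a gene and less RNA per cell cannot be told apart in such bulk RNA.

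Dicer cuts precursor hairpins into mature microRNAs, which guide Argonaute proteins to partly complementary mRNAs and lower their stability and translation. The let-7 family is scarce in early embryos and fetal stem cells and rises as tissues mature. In blood formation, let-7 with its antagonist Lin28b and the targets Igf2bp3, Hmga2 and Arid3a form a switch between fetal and adult types of progenitor. The arrays measure mRNA, and the let-7 level of these cells was not analysed here.

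The sequences that define the family are shown because all 8 listed genes are grouped by them. A microRNA finds its targets mainly through the seed, bases 2 to 8 from its 5′ end, which is printed in capitals. The mature mouse sequences below come from RefSeq (GRCm38.p6), where 11 mature names at 13 loci share the seed GAGGUAG, out of 1679 mature names, and a matching site in an mRNA reads CUACCUC.
mmu-let-7a-5p: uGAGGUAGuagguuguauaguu
mmu-let-7b-5p: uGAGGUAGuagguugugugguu
mmu-let-7d-5p: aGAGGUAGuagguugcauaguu
mmu-let-7g-5p: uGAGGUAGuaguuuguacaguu
mmu-miR-98-5p: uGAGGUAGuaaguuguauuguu
mmu-let-7j: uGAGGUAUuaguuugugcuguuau
The first 4 and miR-98 carry the same seed on different 3′ portions, so 1 site in a target can pair with any of them. mmu-let-7j has the let-7 name but the seed GAGGUAU. The loci printed here lie on several chromosomes: let-7a at chr13:48538239-48538260 (minus strand) near let-7d at chr13:48536078-48536099 (minus strand), let-7b at chr15:85707325-85707346 (plus strand), let-7g at chr9:106178846-106178867 (plus strand), miR-98 at chrX:151913229-151913250 (plus strand) and let-7j at chr3:140028281-140028304 (plus strand).

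MAS5 signals, the linear brightness of a probe set, had been scaled by the authors to a trimmed mean of 100 on every array, and their medians ran from 12.4 to 16.1. The cells carried GMP transcripts: all 13 measured markers of 14 listed were bright enough to test, and the mean signal of the granule protein gene Mpo lay between 7845 and 8360 in the 3 genotypes. Some of these markers differed. In null against wild type Fcgr3 rose by 0.37 on the log2 scale (limma adjusted p = 0.015) and Csf3r changed by -0.38 (adjusted p = 0.0264). In null against heterozygous Irf8 changed by -0.66 (adjusted p = 0.00366) and Csf3r by -0.40 (adjusted p = 0.023). None was called in heterozygous against wild type. The labels give every sample as female C57BL/6, without saying whether donor or recipient is meant. On 8 arrays the X-linked Xist read 16.4 to 30.2 and the Y-linked Eif2s3y 622 to 859, which goes against that label for the measured cells. Wild-type replicate 2 alone had the pattern the label gives, with readings of 2610 and 1.13. Without it, 9, 8 and 3 member probe sets were called in the comparisons described below.

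Markers of other cell types also differed between genotypes. Of the B lymphoid list (571 to 680 summed signal in null, 1102 to 1231 in heterozygous and 1219 to 1464 in wild-type samples), Ighm fell in null by 1.42 on the log2 scale, Cd79b, Vpreb1 and Igll1 were not called, and Cd79a, Pax5 and Ebf1 lay below the filter on dim probe sets. The T and NK lymphoid sum was also lower in both deleted genotypes (768 to 993 in null, 940 to 1026 in heterozygous and 1156 to 1200 in wild-type samples), with Cd3e, Cd3g and Cd247 below the filter. It was carried by Nkg7, with means of 859 in null, 936 in heterozygous and 1129 in wild-type samples. In null against wild type Nkg7 (-0.40, adjusted p = 0.016) and the dim Klrd1 (-0.65, adjusted p = 0.0467) were called, and Il7r was not. The monocyte and macrophage sum (2077 to 2648, 1914 to 2338 and 922 to 1925 in the same order) was carried by Ccr2, which was not called (adjusted p = 0.0588), while Cd14 rose in null and Cd68 fell. In heterozygous against wild type Cd14 changed by -0.90 (limma adjusted p = 0.00873), with means of 12.3 in heterozygous, 33.6 in wild-type and 88.5 in null samples. Of 6 tested late neutrophil genes 3 fell in heterozygous cells (Ltf -1.97, Ngp -1.86 and Lcn2 -1.78) and 2 in null cells, with summed signals that overlapped (1932 to 3096 in heterozygous, 1727 to 5028 in null and 2620 to 4447 in wild-type samples). The mast cell and basophil sum was 3962 to 4640 in heterozygous, 5155 to 7255 in null and 4428 to 6636 in wild-type samples. Fcer1a changed by -3.11 in heterozygous and -2.25 in null cells, from a variable wild-type mean of 244 ± 184 (SD, n = 3). No other gene of that list was called against wild type. In null against heterozygous Cpa3 (0.56, limma adjusted p = 0.0179) and Hdc (0.44, adjusted p = 0.0232) were higher. The endothelial and stromal sum was 188 to 206 in heterozygous, 227 to 322 in null and 189 to 250 in wild-type samples, and 0 of its 6 tested genes were called. Of 5 tested stem and multipotent progenitor genes only Hlf was called, higher in null than in wild type (0.56, limma adjusted p = 0.0352). The summed signals of that list overlapped between genotypes. The part of these lists in the results that follow was not tested.

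Dicer1 itself was lower in the null cells. Its brighter probe set, 1460571_at, had mean signals of 232 ± 11.1 (SD, n = 3) in wild-type arrays, 185 ± 16.1 in heterozygous and 105 ± 9.46 in null samples. It fell by 1.07 on the log2 scale in null against wild type (SE 0.11, limma adjusted p = 3.59e-05), while the heterozygous change of -0.31 had an adjusted p of 0.261. The other probe set, 1427941_at, fell by 1.12 in null (adjusted p = 7.59e-05) and fell by 0.72 in heterozygous cells (adjusted p = 0.0101). That heterozygous call was lost without heterozygous replicate 2 (adjusted p = 0.0691) or wild-type replicate 1 (adjusted p = 0.0586).

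Igf2bp3 and Hmga2 rose in both Dicer1 genotypes and Plagl2 rose in null cells, while Arid3a did not pass the test and Lin28b and Igf2bp1 lay under the brightness needed for testing. Changes here are differences of mean log2(signal + 12), tested with limma across 27022 probe sets with Benjamini-Hochberg adjustment, and a call is an adjusted p under 0.05. Adding 12 shrinks the change of dim probe sets, so ratios of mean signals are given as well. In null against wild type, 10 of the 15 tested member probe sets were higher and 0 lower, where 11.2% of all tested probe sets were called, 5.04% higher and 6.17% lower. In heterozygous against wild type 8 of 15 were higher and 0 lower, against a background of 1.03% called, 0.503% higher and 0.525% lower. In null against heterozygous 3 of 15 were higher and 0 lower, against 9.12% called, 4.4% higher and 4.72% lower. The first-named group stood wholly above the other on 12, 11 and 8 of the 15, as 11.5%, 7.85% and 11.8% of all tested probe sets did. The median changes of the tested members were 2.04, 1.22 and 0.33 in these 3 comparisons, beside -0.06, -0.01 and -0.05 for all tested probe sets.

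Those counts have a limit of construction. The 5 untested members, 4 of Igf2bp1 and 1 of Lin28b, lay under the filter on mean brightness (a signal of 8.49). Igf2bp3 1453957_a_at and Hmga2 1446196_at reached it only through the Dicer1-deleted groups, and the first of these is 1 of the 10 calls. Both are also among the 12 and the 11 probe sets on which null or heterozygous arrays stood wholly above wild type. Probe sets of 1 gene measure the same RNA and are not independent. The calls came from 3, 2 and 1 of the 6 genes in the 3 comparisons, in the order given above. The comparisons against wild type share the same 3 wild-type arrays.

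**Figure D1:**
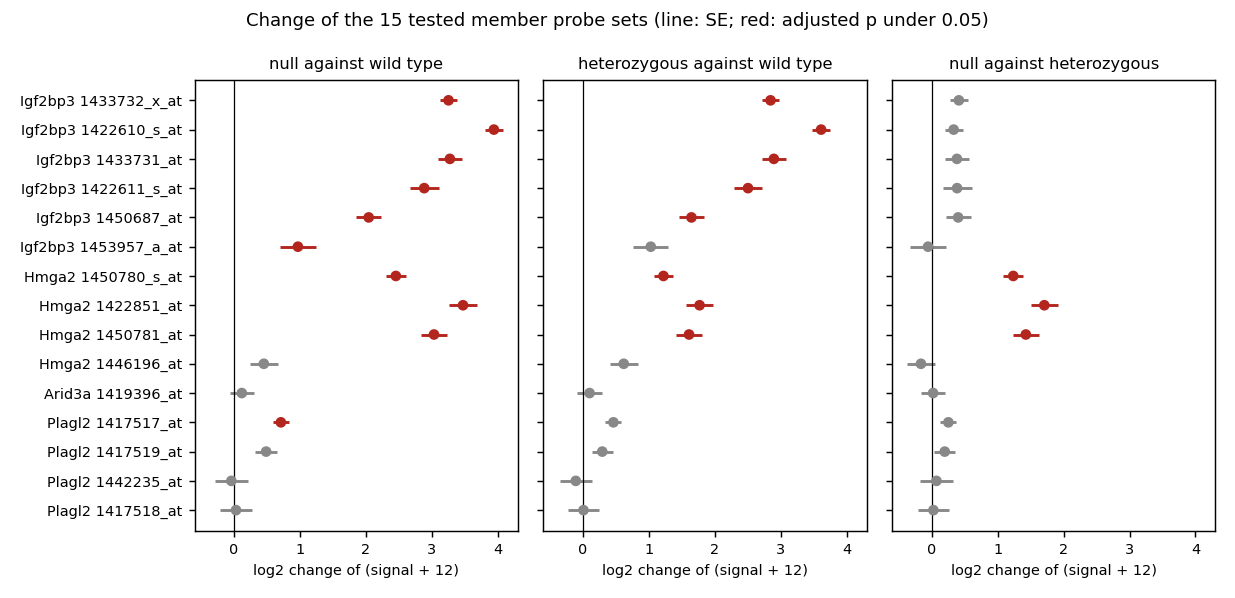
Change in log2(signal + 12) of the 15 tested member probe sets (points, with the standard error as a line) in the 3 comparisons, red where the adjusted p was under 0.05. The brighter Igf2bp3 probe sets lie far to the right in both comparisons with wild type and at 0.33 to 0.41, without a call, between null and heterozygous. The dim Igf2bp3 1453957_a_at lies at 0.97, 1.03 and -0.06 in the 3 panels. The 3 bright Hmga2 probe sets lie right of 0 and are called in all 3 panels.

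Igf2bp3 encodes an RNA-binding protein of fetal tissues that binds and stabilises growth-related mRNAs such as that of Igf2. Its brightest probe set, 1433732_x_at, read 21.9, 27.4 and 19.2 in the wild-type samples, 243, 223 and 246 in the heterozygous samples and 285, 295 and 386 in the null samples. The 3 genotypes did not overlap, and the step from wild type to heterozygous was much larger than the step from heterozygous to null. Mean signals were 22.8 ± 4.18, 238 ± 12.7 and 322 ± 55.5 (SD, n = 3 each), so the null mean was 14.1 times and the heterozygous mean 10.4 times the wild-type mean. The log2 rise was 3.25 in null (SE 0.13, adjusted p = 5.81e-09) and 2.85 in heterozygous cells (SE 0.13, adjusted p = 2.89e-08).

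Other Igf2bp3 probe sets showed the same pattern. On 1422610_s_at the wild-type samples read 12.2, 17.9 and 8.00, the heterozygous samples 275, 299 and 285, and the null samples 379, 340 and 370. Its rise of 3.94 in null (SE 0.14, adjusted p = 7.16e-10) and of 3.61 in heterozygous cells (SE 0.14, adjusted p = 2.37e-09) ranked 3 among all 27022 tested probe sets in both comparisons. No wild-type array came near the other genotypes on this probe set, and the ratio of means was 28.6 in null and 22.6 in heterozygous cells. Wild-type readings of 1433731_at were 27.0, 12.8 and 8.94, against 190, 177 and 207 in heterozygous and 228, 254 and 277 in null samples. For 1422611_s_at they were 13.3, 15.3 and 1.27 in wild-type arrays, 98.3, 107 and 115 in heterozygous and 154, 128 and 147 in null samples. Both were ordered by genotype without overlap, with rises in null of 3.28 and 2.89 (adjusted p = 2.02e-07 and 2.5e-06) and in heterozygous cells of 2.90 and 2.504 (adjusted p = 8.41e-07 and 2.15e-05). The dimmer 1450687_at read 12.5, 8.37 and 7.92 in wild-type arrays, 45.7, 51.8 and 70.9 in heterozygous and 81.5, 58.5 and 93.8 in null samples, so heterozygous and null overlapped while both stood above wild type. Its rises were 2.04 (adjusted p = 1.54e-05) and 1.65 (adjusted p = 0.000331).

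The sixth Igf2bp3 probe set, 1453957_a_at, was dim throughout. It read 9.65, 4.12 and 0.34 in wild-type arrays, 36.7, 15.4 and 15.4 in heterozygous and 26.1, 17.1 and 17.1 in null samples. Both deleted groups stood wholly above wild type and overlapped each other. Its rise of 0.97 in null passed with an adjusted p of 0.0321, and its change of 1.03 in heterozygous cells had an adjusted p of 0.102, or 0.0261 with the replicate number as a block. The null call was lost without any 1 of null replicate 1, 2 or 3 or wild-type replicate 2 or 3 (adjusted p from 0.0557 to 0.121), and with no filter on dim probe sets (adjusted p = 0.0784).

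Between null and heterozygous cells no Igf2bp3 probe set passed the test. The heterozygous mean stood at 72.0% to 78.9% of the null mean on the 5 probe sets that rose in both comparisons. On 1433732_x_at the null mean was higher by 0.41 (95% interval 0.12 to 0.70, adjusted p = 0.0767), and on 1422610_s_at by 0.33 (95% interval 0.04 to 0.62, adjusted p = 0.164). The first passed with 1 probe set per gene in the fit (adjusted p = 0.0489) or with 50 added in place of 12 (0.36, adjusted p = 0.0448), and the second with only these 2 groups fitted (adjusted p = 0.0461). Null arrays lay wholly above heterozygous arrays on 4 of the 6 probe sets.

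**Figure D2:**
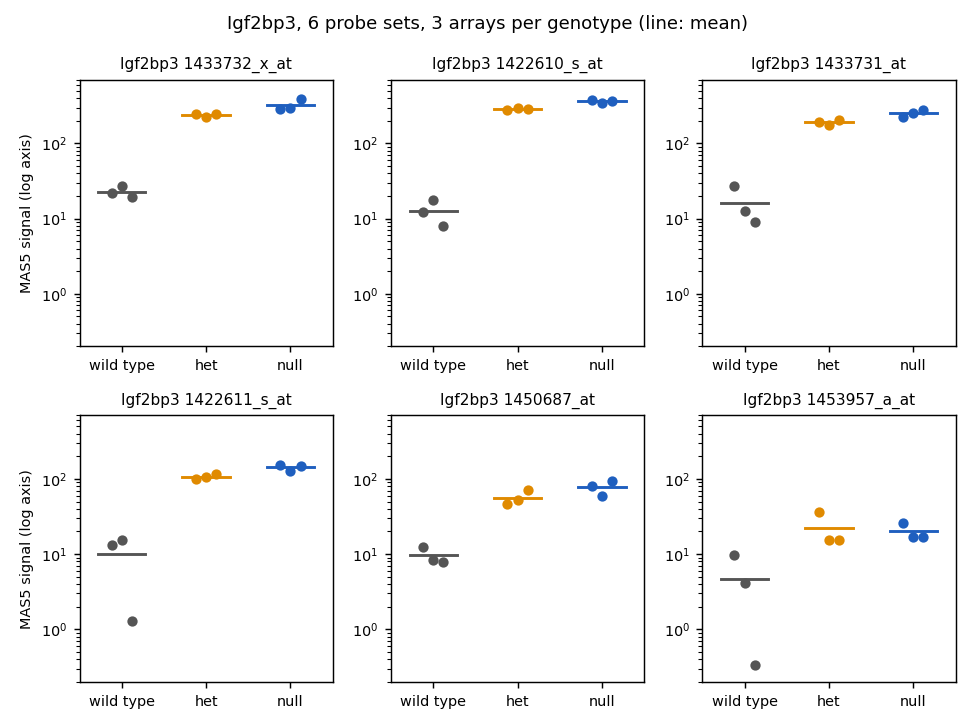
MAS5 signal (log axis) of the 6 Igf2bp3 probe sets in wild-type, heterozygous and null GMPs, with 1 point per array and a line at the mean of 3. Heterozygous points (223 to 246 on 1433732_x_at) sit close to the null points (285 to 386) and far above the wild-type points (19.2 to 27.4).

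Hmga2 encodes a chromatin protein that binds the minor groove of AT-rich DNA and supports self-renewal of fetal stem cells. Its mRNA is the textbook let-7 target, with several sites in its 3′ untranslated region. Probe set 1450780_s_at, the brightest, read 42.3, 39.8 and 38.3 in wild-type arrays, 95.4, 105 and 130 in heterozygous and 238, 345 and 250 in null samples. Each genotype stood wholly above the one before it, and the larger step on the signal scale was from heterozygous to null. Means were 40.1 ± 2.04, 110 ± 17.9 and 277 ± 58.6 (SD, n = 3 each), or 2.75 times wild type in heterozygous and 6.91 times in null cells.

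The other bright Hmga2 probe sets gave the same order. On 1422851_at the wild-type samples read 11.9, 23.7 and 17.8, the heterozygous samples 70.2, 88.0 and 110, and the null samples 256, 437 and 278. On 1450781_at the readings were 9.07, 16.8 and 17.7 in wild-type arrays, 52.2, 74.5 and 80.1 in heterozygous and 173, 263 and 182 in null samples. Null replicate 2 was the highest array on all 3 probe sets. In null against wild type the rises were 2.46, 3.47 and 3.03 (SE 0.15, 0.21 and 0.19, adjusted p = 3.36e-07, 2.98e-07 and 4.81e-07). In heterozygous against wild type they were 1.22, 1.77 and 1.61 (adjusted p = 0.000542, 0.000361 and 0.000465), and in null against heterozygous 1.23, 1.71 and 1.43 (adjusted p = 0.000244, 0.000248 and 0.000591). These are the 3 member calls between null and heterozygous cells.

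The fourth Hmga2 probe set and a pseudogene behaved differently. Hmga2 1446196_at was dim, with 5.52, 2.54 and 5.18 in wild-type arrays, 14.1, 14.8 and 10.6 in heterozygous and 14.5, 6.74 and 10.5 in null samples. Both deleted groups stood above wild type, but neither change passed (0.45, adjusted p = 0.195, and 0.62, adjusted p = 0.242). The annotation also lists Hmga2-ps1, a pseudogene copy that is not among the 8 genes and was picked out after its values were seen. Its probe set 1440559_at read 34.7, 23.7 and 37.9 in wild-type arrays, 104, 77.1 and 95 in heterozygous and 89.6, 67.4 and 72.6 in null samples. The heterozygous and null arrays overlapped there, with rises of 1.25 (adjusted p = 0.00101) and 1.01 (adjusted p = 0.00153) over wild type. Whether the Hmga2 and Hmga2-ps1 probe sets detect each other's RNA was not tested.

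**Figure D3:**
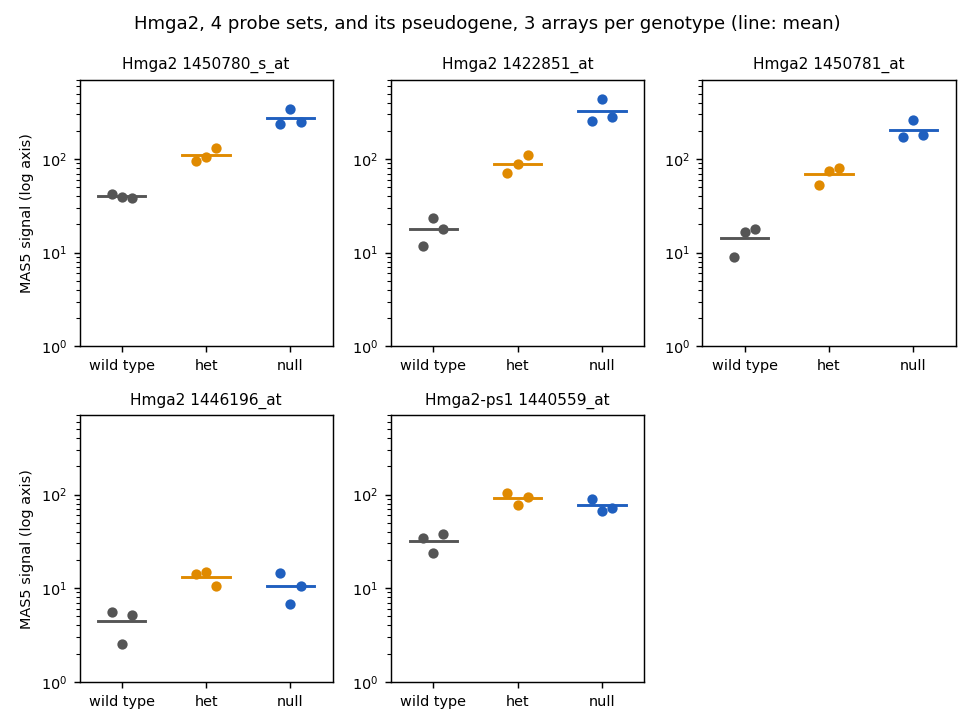
MAS5 signal (log axis) of the 4 Hmga2 probe sets and of the pseudogene Hmga2-ps1 by genotype, with 1 point per array and a line at the mean of 3. The 3 bright Hmga2 probe sets climb in 2 steps from wild type to null, for example 38.3 to 42.3, then 95.4 to 130, then 238 to 345 on 1450780_s_at, while Hmga2-ps1 has overlapping heterozygous and null arrays.

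The heterozygous cells therefore stood at different places between wild type and null for the 2 genes. For Igf2bp3 the heterozygous rise made up 68.1% to 78.1% of the null rise in mean signal on its 5 brighter probe sets, and for Hmga2 23.5% to 29.6% on its 3. The difference was also taken within each array, as the log2 value of Igf2bp3 1433732_x_at minus that of Hmga2 1450780_s_at, the brightest probe set of each, a contrast chosen after the values were seen. It ran from -0.69 to -0.39 in wild type, from 0.86 to 1.25 in heterozygous and from -0.22 to 0.60 in null samples. Each pair of genotypes was without overlap, which in an exact two-sided permutation test gives p = 0.1, the smallest that 3 against 3 arrays allow (0.1125 after adjustment over 9 such contrasts). The heterozygous rise of Igf2bp3 exceeded that of Hmga2 by 1.62 on this scale, and the step from heterozygous to null was smaller by 0.83.

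Plagl2, a zinc-finger transcription factor related to the fetal growth regulator Plagl1, rose modestly. Its brightest probe set, 1417517_at, read 121, 94.2 and 124 in wild-type arrays, 164, 171 and 144 in heterozygous and 197, 199 and 179 in null samples. The genotypes did not overlap. Means were 113 ± 16.5, 160 ± 14.1 and 192 ± 10.9 (SD, n = 3 each), and the rise of 0.71 in null passed (SE 0.12, adjusted p = 0.00214). The heterozygous difference of 0.46 had a 95% interval of 0.20 to 0.72 and an adjusted p of 0.108.

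The other Plagl2 probe sets did not pass. On 1417519_at the samples read 51.0, 34.5 and 56.7 in wild-type arrays, 55.3, 65.6 and 58.8 in heterozygous and 70.2, 61.2 and 80.0 in null cells, with null wholly above wild type (0.49, adjusted p = 0.0713). The change crossed the threshold after quantile normalization (0.58, adjusted p = 0.0386). Genotypes overlapped on 1442235_at and 1417518_at, whose null changes were -0.04 (adjusted p = 0.942) and 0.03 (adjusted p = 0.958), and the first of these turned to 0.07 after quantile normalization. When all 4 probe sets were averaged into 1 value for the gene, the null change of Plagl2 was 0.30 with an adjusted p of 0.0954.

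Arid3a encodes an AT-rich DNA-binding transcription factor used in fetal-type B cell development. Its only probe set, 1419396_at, read 112, 60.6 and 88.0 in wild-type arrays, 102, 72.7 and 102 in heterozygous and 86.4, 88.3 and 104 in null samples. All 3 genotypes overlapped and the wild-type arrays spread most. The changes were 0.12 in null (95% interval -0.28 to 0.51, adjusted p = 0.748) and 0.10 in heterozygous cells (95% interval -0.29 to 0.49, adjusted p = 0.892). Without wild-type replicate 2, the lowest array, they were -0.09 and -0.11.

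**Figure D4:**
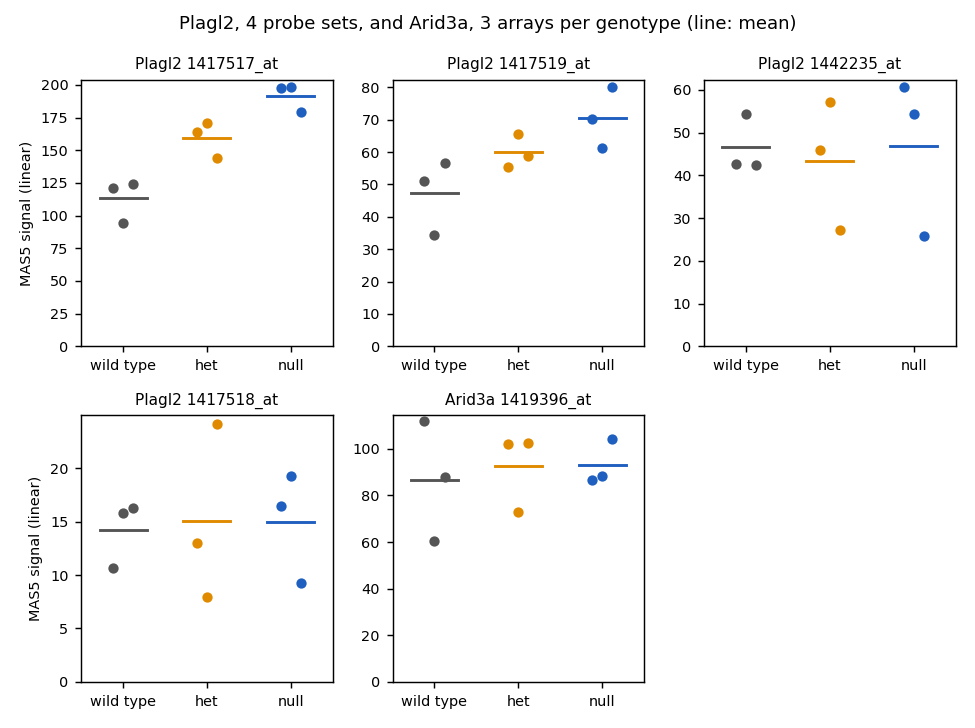
MAS5 signal (linear axes starting at 0) of the 4 Plagl2 probe sets and of Arid3a by genotype, with 1 point per array and a line at the mean of 3. Only on Plagl2 1417517_at are the 3 genotypes ordered without overlap (94.2 to 124, 144 to 171 and 179 to 199), and Arid3a overlaps throughout.

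Lin28b, the RNA-binding protein that blocks let-7 processing and is itself a let-7 target, was at the bottom of the scale on every array. Its probe set 1430803_at read 1.32, 2.59 and 0.06 in wild-type arrays, 1.19, 0.43 and 2.84 in heterozygous and 4.14, 1.52 and 0.11 in null samples. Tested with no filter, its null change was 0.06 (adjusted p = 0.89) and its heterozygous change 0.02 (adjusted p = 0.986). Igf2bp1, the close relative of Igf2bp3, was also under the filter on its 4 probe sets, whose highest reading was 15.6 on 1 wild-type array. On Igf2bp1 1418761_at the wild-type samples read 0.27, 4.76 and 1.07, the heterozygous samples 11.7, 11.3 and 0.46, and the null samples 8.03, 13.2 and 8.16. The null arrays stood wholly above wild type there, and with no filter the change of 0.64 had an adjusted p of 0.187. Whether RNA of these 2 genes was present was not tested.

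Across the whole set, 8 of the 15 tested probe sets were ordered wild type, heterozygous, null without any overlap, as were 0.722% of all tested probe sets. They were 4 of Igf2bp3, 3 of Hmga2 and Plagl2 1417517_at. Signals of different probe sets are not on 1 scale, so the genes were not ranked by level.

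The regions upstream of the 2 genes that moved most are shown because both rose together although the genes lie on different chromosomes. Each is the 250 bases before the annotated transcription start in RefSeq (GRCm38.p6), written along the gene's strand. Both strands were searched for the GC box (GGGCGG), the CCAAT box as named, the TATA box (TATAAA) and an E-box (CACGTG). No match found here overlaps another, and matches are in capitals.
Igf2bp3 promoter, chr6:49214955-49215204, minus strand: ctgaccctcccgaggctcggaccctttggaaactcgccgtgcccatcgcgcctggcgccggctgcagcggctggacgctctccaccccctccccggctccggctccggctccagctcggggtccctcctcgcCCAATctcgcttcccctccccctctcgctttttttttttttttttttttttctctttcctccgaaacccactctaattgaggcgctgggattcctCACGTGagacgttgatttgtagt
Hmga2 promoter, chr10:120476470-120476719, minus strand: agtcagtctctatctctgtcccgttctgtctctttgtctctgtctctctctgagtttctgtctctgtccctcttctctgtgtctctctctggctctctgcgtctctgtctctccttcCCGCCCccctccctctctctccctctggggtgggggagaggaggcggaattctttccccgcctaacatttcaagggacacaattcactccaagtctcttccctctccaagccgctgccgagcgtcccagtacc
The Igf2bp3 window had 1 CCAAT, 1 CACGTG and no GGGCGG or TATAAA, with 60.4% G and C. The Hmga2 window had 1 GC box, read on the other strand as CCGCCC, and none of the other motifs, with 56.4% G and C. The median over all windows was 52.4%, and of 32851 windows 32.7% held GGGCGG, 33.8% CCAAT, 12.4% TATAAA and 6.02% CACGTG on either strand. The windows thus had no searched motif in common.

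Among 12343 other genes, those with the most similar pattern were found by Pearson correlation of log2 values over the 9 arrays, each gene by its brightest probe set. These correlations describe arrays that share 3 genotypes and carry no test. For Igf2bp3 1433732_x_at they were Ifi202b (r = 0.992), Cct6a (r = 0.988) and Paip1 (r = 0.980). Ifi202b, an interferon-inducible gene whose expression differs between inbred mouse strains, read 0.73, 0.95 and 0.75 in wild-type arrays, 242, 269 and 274 in heterozygous and 372, 307 and 314 in null samples. The wild-type arrays were near 0 and the other 6 all at 242 or more, and whether the groups differ in strain background was not tested. Paip1, which binds the poly(A)-binding protein, had means of 189 ± 25.0, 550 ± 66.7 and 630 ± 33.9 (SD, n = 3 each). For Hmga2 1450780_s_at the nearest genes were Rnf168 (r = 0.990), Tmem165 (r = 0.981) and Vma21 (r = 0.981), with null changes of 0.29, 0.50 and 0.41. The nearest to Plagl2 1417517_at were Pgam1 (r = 0.968), Rnf111 (r = 0.964) and Kdelr2 (r = 0.962).

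A wider list of let-7 targets was written from general knowledge, with earlier results of these data known, so its counts are not an independent test. Of its 50 genes 35 were tested, each by its brightest probe set. In null against wild type 9 were higher and 2 lower, where 6.58% of all 12347 tested genes were higher and 6.93% lower, with a median change of 0.14 beside -0.04 for all genes. In heterozygous against wild type 0 were higher and 1 lower (backgrounds 0.551% and 0.616%), and in null against heterozygous 9 were higher and 1 lower (5.94% and 6.11%). Fndc3a, with means of 454 ± 41.9 in wild-type arrays, 430 ± 7.77 in heterozygous and 1274 ± 144 in null samples (SD, n = 3 each), rose by 1.46 in null (adjusted p = 7.85e-07). Its heterozygous change was -0.07 (adjusted p = 0.845), and of its other probe sets 1 rose by 0.91 and 1 had a change of -0.31 that did not pass. Tgfbr1, a TGF-beta receptor, had means of 308 ± 19.8, 289 ± 17.2 and 634 ± 89.8 and rose by 1.01 in null (adjusted p = 5.48e-05), with a heterozygous change of -0.09 (adjusted p = 0.823). Another, dim Tgfbr1 probe set gave 0.02 (adjusted p = 0.966). Bach1 rose by 0.70 in null against wild type (adjusted p = 0.000115) and by 0.59 against heterozygous cells (adjusted p = 0.000621). Its heterozygous change was 0.11 (adjusted p = 0.661), and its other probe set gave 0.21 in null against wild type (adjusted p = 0.423). Dusp1, a phosphatase of stress-responsive kinases, fell by 2.91 in null (adjusted p = 3.31e-06) and fell by 3.09 in heterozygous cells (adjusted p = 4.73e-06), from 363 ± 157 to 35.6 ± 7.44 and 29.9 ± 5.40. The second gene that fell in null was Dicer1, described above.

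The heterozygous count of that list rests on few genes. It was 2 without wild-type replicate 2, and the null against heterozygous count of 10 calls became 6 without null replicate 3 or without heterozygous replicate 2.

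**Figure D5:**
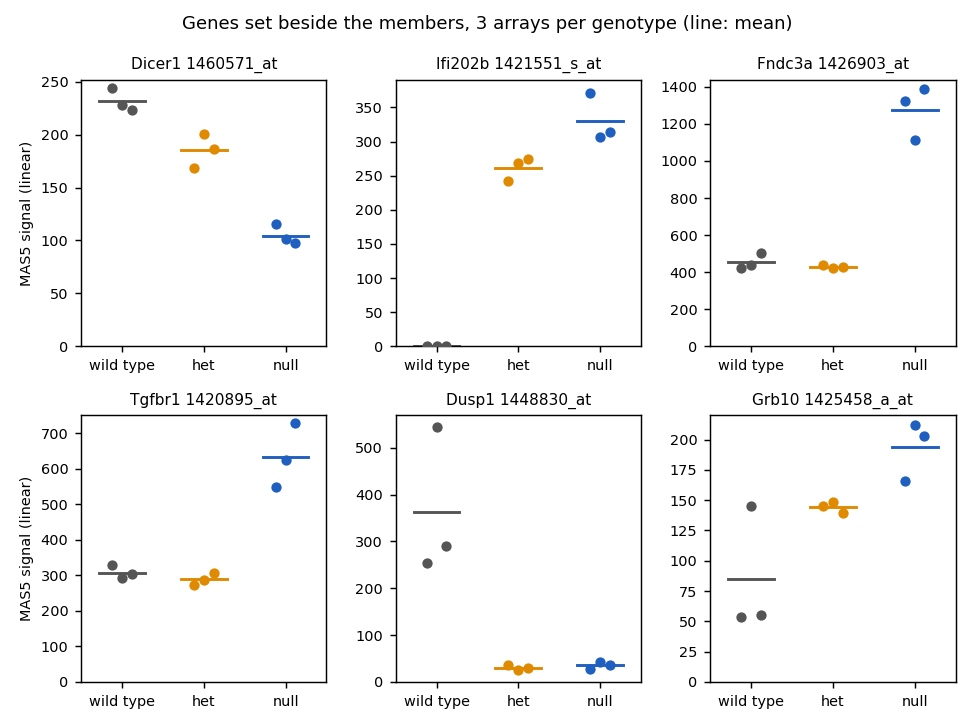
MAS5 signal (linear axes starting at 0) of Dicer1, Ifi202b, Fndc3a, Tgfbr1, Dusp1 and Grb10 by genotype, with 1 point per array and a line at the mean of 3. Ifi202b is near 0 in wild type only, Fndc3a and Tgfbr1 are high in null only, and Dusp1 is high in wild type only.

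Genes that make, load or degrade let-7 were a further list, of which 16 of 19 were tested. In null against wild type 3 were higher and 2 lower, in heterozygous against wild type 0 and 0, and in null against heterozygous 3 and 1, with medians of 0.20, -0.10 and 0.09. Over all tested genes 6.58% were higher and 6.93% lower in the first comparison, 0.551% and 0.616% in the second and 5.94% and 6.11% in the third. Besides Dicer1, Hnrnpa1, an RNA-binding protein that affects let-7 processing, fell by 0.65 in null (adjusted p = 0.000264). Ago2, the Argonaute that slices targets, rose by 0.74 (adjusted p = 0.00449). Khsrp, which promotes let-7 maturation, rose by 0.53 (adjusted p = 0.0195), a call lost without null replicate 1 (0.0784), null replicate 3 (0.0507) or wild-type replicate 1 (0.0583). Its other probe sets gave 0.57 (adjusted p = 0.246) and -0.16 (adjusted p = 0.681). Lin28a, the relative of Lin28b, had means of 19.8 ± 6.48, 12 ± 5.24 and 39.2 ± 14 (SD, n = 3 each) and was higher in null than in heterozygous cells by 1.07 (adjusted p = 0.0141). That call was lost without null replicate 1 (0.0647), null replicate 3 (0.0583) or heterozygous replicate 2 (0.0571), and its change against wild type was 0.67 (adjusted p = 0.0956). Ago1 rose in null against heterozygous cells by 0.58 (adjusted p = 0.00229).

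Among mRNAs that IGF2BP proteins are known to bind, 1 gene besides Hmga2 passed. Of 16 listed, 11 were tested, and 2, 1 and 2 were higher in the 3 comparisons, with 0 lower in each and medians of 0.13, 0.03 and 0.12, beside 6.58%, 0.551% and 5.94% of all tested genes higher. Besides Hmga2, the homeobox gene Hoxa9 rose in null, with means of 351 ± 243 in wild-type arrays, 246 ± 51.1 in heterozygous and 1424 ± 199 in null samples (SD, n = 3 each), a rise of 2.19 (adjusted p = 0.000834). Its other probe set gave 0.53 (adjusted p = 0.108).

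Other fetal and imprinted genes were mostly too dim to test, with 11 of 24 tested. In null against wild type 2 were higher and 0 lower, in heterozygous against wild type also 2 and 0, and in null against heterozygous 0 and 2, with medians of 0.31, 0.22 and -0.15. The shares over all tested genes were 6.58% higher and 6.93% lower, 0.551% and 0.616%, and 5.94% and 6.11%. Grb10, an imprinted adaptor of the insulin receptor, read 53.4, 145 and 55.2 in wild-type arrays, 145, 148 and 140 in heterozygous and 166, 212 and 203 in null samples on 1425458_a_at. Wild-type replicate 2 lay at the heterozygous level, and the null rise was 1.21 (adjusted p = 0.00683), with -0.13 and 0.16 on its other probe sets. Impact rose by 0.52 in null (adjusted p = 0.0111) on 1 probe set and fell by 0.76 on another (adjusted p = 0.0276), and the rise was lost without null replicate 3 (0.0525) or wild-type replicate 3 (0.0523). The fall was lost without null replicate 2 or 3 or wild-type replicate 1 or 3 (adjusted p from 0.0573 to 0.117). Afp, the fetal serum protein gene, rose by 0.93 in heterozygous cells (adjusted p = 0.00684), a call lost without heterozygous replicate 2 (0.0546), and was lower by 0.63 in null than in heterozygous cells (adjusted p = 0.0213). The latter call was lost without null replicate 1 or 3 or heterozygous replicate 1 or 2 (adjusted p from 0.0679 to 0.092). The heterozygous rise of Plagl1 (0.87, adjusted p = 0.0438) was lost without any 1 of the 9 arrays, and the fall of Gnas in null against heterozygous cells (by 0.24, adjusted p = 0.0469) without any 1 of 8.

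Paralogs of the members moved in both directions. Of 12 listed, 8 were tested, with 1 higher and 2 lower in null against wild type, 1 and 0 in heterozygous against wild type and 1 and 2 in null against heterozygous, and medians of -0.11, -0.03 and -0.08, beside 6.58% and 6.93%, 0.551% and 0.616%, and 5.94% and 6.11% of all tested genes. The 1 heterozygous call was Plagl1, which was lost without any 1 of the 9 arrays. The nucleosome-binding HMG proteins Hmgn3 and Hmgn1 fell by 1.04 and 0.53 in null (adjusted p = 0.000322 and 0.0048), and by 0.74 and 0.74 against heterozygous cells (adjusted p = 0.00471 and 0.000705). Plag1, the relative of Plagl2, had means of 3.25 ± 2.46, 13.9 ± 1.91 and 16.2 ± 3.52 (SD, n = 3 each) on 1443943_at, a rise of 0.89 in null (adjusted p = 0.0134). Leaving out null replicate 2 (0.0532) or wild-type replicate 2 (0.0538) ended that call. Wild-type readings of 1443943_at were 4.49, 0.42 and 4.84, under the filter on mean brightness (a signal of 8.49). The probe set therefore reached the filter only through the Dicer1-deleted groups. The other Plag1 probe set gave -0.32 (adjusted p = 0.452).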

How the data were processed

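RNA was measured on 9 arrays, 3 per genotype as the labels give it. The deposited values are MAS5 signal intensities on a linear scale, per the submitters' processing notes, with the version and settings not given in the sources used here. Their trimmed mean was 100 on every array (2% trimmed from each end), which hides any shift common to the whole transcriptome. Gene names came from the platform annotation, in which 34945 non-control probe sets had 1 symbol, 932 several and 9160 none; the 64 control probe sets were left out. The members and lists were chosen with earlier results of these data known.

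Values were analysed as log2(signal + 12) in R 4.3.3 by limma 3.58.1 (a linear model with eBayes, prior variance following mean intensity), with all 9 arrays in 1 fit. The 27022 probe sets whose mean log2 value reached the 40th percentile (a signal of 8.49) were tested, with Benjamini-Hochberg adjustment over them and a threshold of 0.05. On simulated data with 200 changed probe sets, the null against wild type fit recovered 61% of 2-fold and 19% of 1.5-fold changes, with 2 false calls among 27022 probe sets. No read depth exists for arrays, and their number limits the precision. Text names all member probe sets, the 3 most similar genes of each member called by its brightest probe set, and the called genes of each list, or the 4 with the smallest p where more were called. Alternatives were other added constants, filters, normalizations, fits and ways to combine probe sets, a replicate block, and leaving out each array.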

Additional observations from a re-analysis of the deposited data

How the results depend on the processing

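Over the 45 member changes (15 probe sets in 3 comparisons), the alternatives gave 906 values, of which 863 kept their direction and side of the threshold. In 28 the sign turned, in each case for a change that was not called and that was at most 0.25 after turning. The member counts of 10, 8 and 3 ran from 9 to 10, 8 to 8 and 3 to 3 when single arrays were left out. Combining probe sets counts each gene at most once. With the brightest probe set per gene the counts were 3, 2 and 2, and with the mean of a gene's probe sets 2, 2 and 1. The first way added Igf2bp3 in null against heterozygous (adjusted p = 0.0489). The second lost Plagl2 in null against wild type (0.30, adjusted p = 0.0954). The count of other let-7 targets ran from 9 to 12, 1 to 2 and 6 to 10 with single arrays left out, and in heterozygous against wild type it was 2 with array weights and 2 with the mean of a gene's probe sets; the cause was not tested.

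Sign changes with another processing were these. Plagl2 1442235_at in null against wild type gave 0.0702 with quantile normalization, 0.0646 with cyclic loess and 0.0289 with median centring. Plagl2 1417518_at in heterozygous against wild type gave -0.0315 with 1 added in place of 12 and -0.0733 with array weights. Igf2bp3 1453957_a_at in null against heterozygous gave 0.0497 with array weights. With single arrays left out, Arid3a ran from -0.0879 to 0.30 (null against wild type), -0.11 to 0.28 (heterozygous against wild type) and -0.13 to 0.0901 (null against heterozygous). In the same order Plagl2 1442235_at ran from -0.22 to 0.25, -0.29 to 0.12 and -0.16 to 0.36, and Plagl2 1417518_at from -0.0858 to 0.19, -0.22 to 0.20 and -0.17 to 0.25. Igf2bp3 1453957_a_at ran from -0.20 to 0.22 in null against heterozygous.

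Called sizes depended on the added constant: the null rise of Igf2bp3 1422610_s_at was 4.80 with 1 added and 2.72 with 50. With 50 added, Igf2bp3 1433732_x_at passed in null against heterozygous (0.36, adjusted p = 0.0448). Whether the replicate numbers mark pairs was not tested, and the main fit ignores them. Correlations of deviations from group means ran from -0.03 to 0.18 for same-numbered arrays and from -0.15 to 0.08 for others. Of the 9 arrays, 7 correlated best with an array of their own number. With the replicate block, member counts were 10, 9 and 3, and those of other let-7 targets 13, 1 and 10. Signals near the bottom of the scale limit Lin28b and Igf2bp1.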
